A study of Mus musculus with 6 samples.

Results

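The transcripts described here encode the subunits of the constitutive proteasome, the protease complex that degrades most of the short-lived and misfolded protein of the cytosol and nucleus. They were taken as all gene symbols of the families Psma, Psmb, Psmc and Psmd followed by a number, without Psmb8, Psmb9 and Psmb10, which encode the inducible subunits of the immunoproteasome. This gave 36 of the 38896 genes in the deposited table: 16 of the core (8 Psma and 8 Psmb) and 20 of the cap (6 Psmc and 14 Psmd). RNA was sequenced from cultures of colonic fibroblasts, the connective-tissue cells of the bowel wall, grown from distal colon taken at 6 weeks of age. Cells of 3 mice, numbered 1716, 1717 and 1718, were passaged 2 times and then kept for 24 h in inflammatory conditioned medium (DSS group, 3 libraries) or in control medium (Ctrl group, 3 libraries), so each mouse gave 1 library of each kind. The labels name the groups DSS and Ctrl, and the libraries labelled DSS were taken as those from inflammatory medium. The labels list both names under genotype and give no strain, and how the medium was made was not known here.

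The proteasome core is a barrel of stacked rings. The outer rings, built from Psma proteins, gate the entrance, and the inner rings, built from Psmb proteins, hold the sites that cut peptide bonds. The cap sits on the end of the barrel: its Psmc proteins form a ring of ATPases that unfolds substrates and feeds them in, and its Psmd proteins bind ubiquitin, remove it or brace the structure. In many cell types interferon-gamma exchanges the catalytic core subunits for the inducible ones, which favours peptides suited to class I presentation, and loss of proteasome activity raises transcription of nearly all subunits through the transcription factor Nfe2l1.

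The libraries held 17293680 to 17931239 estimated counts in DSS and 17734405 to 19482938 in Ctrl, and the 36 genes took 0.203 to 0.230% of them in DSS and 0.190 to 0.199% in Ctrl. The summed level of 10 fibroblast markers was 20478 to 24975 CPM (the count scaled to a common library size after TMM normalization) in DSS and 37594 to 44337 CPM in Ctrl, with Col1a1, Col1a2 and Col3a1 making up most of it. The markers did not move together: on the log2 scale 7 had a fitted change below 0 and 3 above, Pdgfra (0.71), Dcn (0.47) and Pdpn (0.23). Macrophage transcripts were present in all libraries, with a sum over 9 markers of 1269 to 2118 CPM in DSS and 2088 to 2996 CPM in Ctrl. Of these markers 7 had a fitted change below 0 and 2 above, Cd68 (0.71) and Adgre1 (0.28). The 5 markers of smooth muscle and interstitial cells summed to 588 to 689 CPM in DSS and 561 to 618 CPM in Ctrl, with 2 fitted changes above 0 and 3 below. The 4 markers of enteric glia summed to 59.4 to 261 CPM in DSS and 95.8 to 323 CPM in Ctrl, while 8 epithelial markers summed to at most 4.14 CPM in DSS and 5.48 CPM in Ctrl. The part of these other cells in the values below was not tested. In bulk RNA fewer cells of a type and less RNA per cell cannot be told apart.

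Transcripts of the constitutive proteasome changed little as a group in inflammatory medium. The main fit held the group only and did not pair libraries by mouse, and calls with the mouse as a block follow below. In the main fit 3 of 35 subunits that passed the filter on low counts rose and 0 fell (edgeR quasi-likelihood test, Benjamini-Hochberg adjusted p below 0.05). Those that rose were Psma5 of the outer core ring, Psmd11 of the cap and, with an adjusted p just under the threshold, Psmd5, a chaperone of cap assembly. The 3 risen members were 8.57% of those tested, against 7.37% of all 19869 genes called higher, a share near the background. No member was called lower, against 5.91% of all genes, although 11 of the 35 members (31.4%, higher or lower) had an unadjusted p under 0.05, against 28.5% of all genes, and DESeq2 also called no member lower (6.55% of all genes). Fitted changes ran from -0.34 to 0.74 on the log2 scale, with a median of 0.08, against a median of 0.01 over all genes tested, and 24 members (68.6%) lay above 0 and 11 below, where 51.4% of all genes lay above 0.

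Only Psma5 and Psmd11 of the 35 members changed by more than 1.5-fold in the fit, and 14.9% of all genes tested did so in either direction. For 31 of the 35 members (88.6%) the whole 95% interval of the change lay within 1.5-fold, as it did for 49.3% of all genes. The median SE was 0.08 for members and 0.15 for all genes, so the members were also measured more precisely than most genes. Values of the groups did not overlap for 15 members, with DSS above Ctrl for 12 (34.3%, against 17.7% of all genes) and below for 3 (8.57%, against 16.5%). When the mouse was added to the fit as a block, 7 members were called higher (20%, against 12.3% of all genes) and 1 lower (2.86%, against 12.7%), adding Psma2, Psma7, Psmd8 and Psmd10 to those higher and Psmd6 as lower. DESeq2 with the same block called only Psma5 and Psmd11, both higher, where it called 7.41% of all genes higher and 7.91% lower. Within mice, 17 members (48.6%) were higher in DSS in all 3 pairs and 6 (17.1%) lower in all 3, against 28.4% and 28.5% of all genes.

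**Figure D1:**
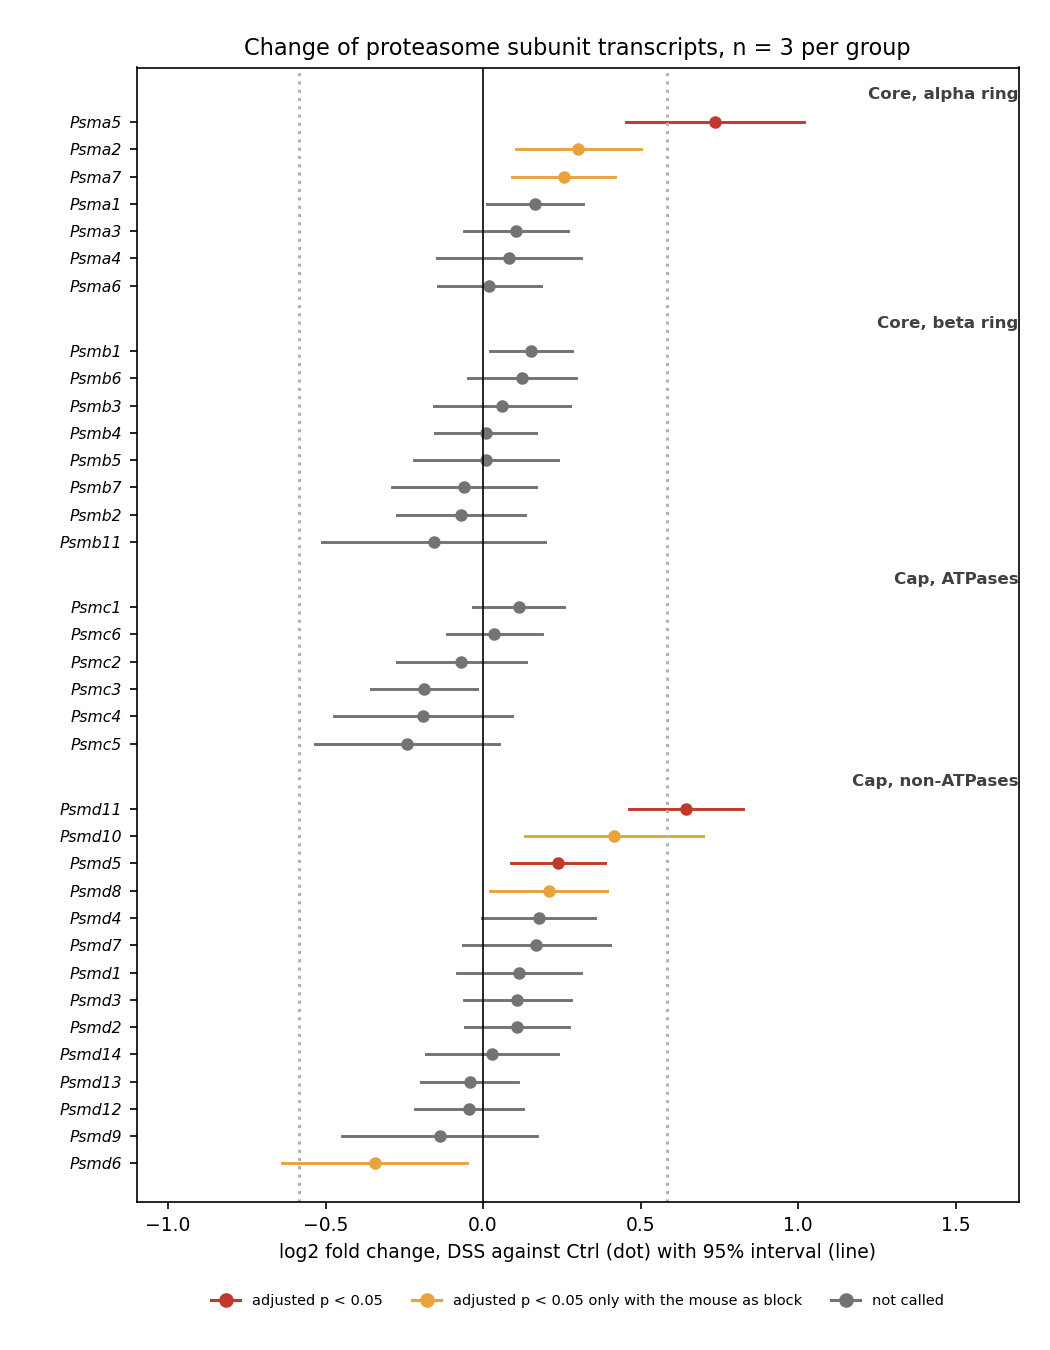
Fitted log2 fold change of DSS against Ctrl (dot, horizontal axis) with its 95% interval (line) for the 35 subunits tested, ordered by change within each class; dotted lines mark 1.5-fold in either direction. Psma5 (0.74) and Psmd11 (0.64) stand to the right of the other members, and most intervals lie between the dotted lines.

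The outer ring of the core held the member with the largest rise. All 7 tested Psma genes had a fitted change above 0, as 51.4% of all genes did, with a median of 0.17. Of the 7, 1 passed the test (14.3%, against 7.37% of all genes called higher). Psma5 (NCBI Gene 26442, chromosome 3, 108256926 to 108279952, GRCm38), a ring subunit present in every form of the core, stood at 65.5, 62.3 and 83.7 CPM in the DSS libraries of mice 1716, 1717 and 1718, against 39.4, 45.3 and 42.2 CPM in their Ctrl libraries. Each DSS library lay above each Ctrl library. The mean was 70.5 ± 11.5 CPM in DSS and 42.3 ± 2.95 CPM in Ctrl (SD, n = 3 each), a log2 fold change of 0.74 ± 0.12 (SE, edgeR adjusted p = 0.00875). Within mice the difference in log2(CPM + 1) was 0.72, 0.45 and 0.97, higher in 3 of 3. Without both libraries of mouse 1718 the adjusted p by edgeR was 0.0524.

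Psma2 and Psma7, in the same ring, had smaller changes that did not pass in the main fit. Psma2 had 50.6, 51.8 and 60.3 CPM in the DSS libraries of mice 1716, 1717 and 1718, against 43.4, 42.6 and 46.0 CPM in Ctrl. Psma7 had 52.9, 56.4 and 59.9 CPM in DSS, against 46.3, 48.9 and 46.5 CPM in Ctrl. For both, the lowest DSS library exceeded the highest Ctrl library. The log2 fold change was 0.30 ± 0.09 for Psma2 (edgeR adjusted p = 0.0574, and 0.0112 with the mouse as a block) and 0.26 ± 0.07 for Psma7 (edgeR adjusted p = 0.054, and 0.0227 with the block). The test without the block also passed for Psma7 with library totals alone as the scale (edgeR adjusted p = 0.0491) and without the DSS library of mouse 1716 (0.0428).

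The remaining ring subunits lay closer to 0. Psma1 was at 50.6, 54.8 and 50.2 CPM in DSS and at 46.5, 45.2 and 47.0 CPM in Ctrl, a log2 fold change of 0.17 with a 95% interval of 0.01 to 0.32 (edgeR adjusted p = 0.144). Psma6 had the smallest change of the ring, with 52.3, 54.3 and 57.5 CPM in DSS and 56.9, 52.9 and 51.9 CPM in Ctrl. Its groups overlapped, and the log2 fold change of 0.02 had an interval of -0.14 to 0.18. Psma3 and Psma4 had log2 fold changes of 0.10 and 0.08. Psma3 was spread over 6 listed transcripts, the largest of which took 69.0% of its counts in both groups, so its total is surer than any of its forms. Psma8, which replaces a ring subunit in the testis, did not pass the filter and had 0.228, 0.397 and 0.285 CPM in DSS against 0.152, 0.164 and 0.344 CPM in Ctrl.

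None of the 8 tested Psmb genes of the inner ring passed the test with or without the block. Over all genes 25% were called in either direction with the block and 13.3% without it. Their changes ran from -0.16 to 0.15 on the log2 scale, with a median of 0.01, and for all 8 the 95% interval lay within 1.5-fold. Psmb1, a ring subunit without a cutting site, had the smallest p of this class: 66.7, 67.0 and 68.1 CPM in DSS, against 60.3, 60.7 and 60.7 CPM in Ctrl. These groups did not overlap, and the replicates were close to each other, but the log2 fold change was 0.15 ± 0.06 (edgeR adjusted p = 0.122). Psmb2, Psmb3 and Psmb4, also without a cutting site, had log2 fold changes of -0.07, 0.06 and 0.01, and Psmb4 turned to below 0 with DESeq2's scaling (-5.2e-05). Psmb2 stood at 24.8, 26.0 and 27.9 CPM in DSS and 25.1, 28.9 and 28.7 CPM in Ctrl, which overlapped.

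The constitutive core has 3 catalytic subunits, and none of them passed the test. Psmb5, which carries the chymotrypsin-like site, had 50.3, 56.1 and 60.8 CPM in DSS and 51.9, 53.0 and 61.4 CPM in Ctrl, a log2 fold change of 0.01 with a 95% interval of -0.22 to 0.24. Psmb6, with the caspase-like site, had 48.7, 54.2 and 53.3 CPM in DSS, against 45.9, 47.0 and 50.7 CPM in Ctrl (log2 fold change 0.12, interval -0.05 to 0.29). Psmb7, with the trypsin-like site, had 43.2, 48.0 and 54.8 CPM in DSS, against 48.4, 50.1 and 53.8 CPM in Ctrl (log2 fold change -0.06, interval -0.29 to 0.17). In each of the 3 genes the groups overlapped. Their inducible counterparts Psmb8, Psmb9 and Psmb10 all rose in the same libraries, by 1.68 ± 0.36, 3.01 ± 0.52 and 1.60 ± 0.38 on the log2 scale (edgeR adjusted p = 0.0215, 0.0104 and 0.0334), calls that limma-voom did not make (adjusted p = 0.0547, 0.0552 and 0.0709). Without mouse 1716 the edgeR adjusted p was 0.127, 0.0654 and 0.167 for Psmb8, Psmb9 and Psmb10, and without mouse 1718 it was 0.161, 0.105 and 0.139. Psmb8 and Psmb10 also lost their calls without any single library other than the DSS library of mouse 1717 (edgeR adjusted p = 0.0521 to 0.0786 and 0.0625 to 0.12). These fits had no block. With all libraries and the mouse as a block, the edgeR adjusted p was 0.00627, 0.00119 and 0.000802 for Psmb8, Psmb9 and Psmb10.

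Set per transcript length, each inducible subunit stood higher against its constitutive partner in DSS than in Ctrl in every mouse, a comparison given without a test. The ratio of Psmb8 to Psmb5 was 0.740, 0.238 and 0.614 in DSS libraries of mice 1716, 1717 and 1718, against 0.170, 0.178 and 0.149 in Ctrl. The ratio of Psmb9 to Psmb6 was 0.516, 0.103 and 0.384 in DSS, against 0.0450, 0.0455 and 0.0421 in Ctrl, and that of Psmb10 to Psmb7 was 0.830, 0.294 and 0.747 in DSS, against 0.203, 0.152 and 0.235 in Ctrl. All ratios stayed below 1, and in DSS that of mouse 1717 was the lowest of the 3 for each pair. For Psmb8 this bound depends on the lengths used, 1628 bases against 899 for Psmb5. In CPM Psmb8 exceeded Psmb5 in the DSS libraries of mice 1716 (67.4 against 50.3) and 1718 (67.7 against 60.8). It did not in that of mouse 1717 (24.1 against 56.1), and Psmb9 and Psmb10 stayed below their partners in CPM too. Psmb11, a core subunit known from the cortex of the thymus, was low, with 2.51, 2.16 and 2.62 CPM in DSS and 2.74, 2.63 and 2.75 CPM in Ctrl. Its DSS libraries lay below the Ctrl ones, with a log2 fold change of -0.16 ± 0.15 (edgeR adjusted p = 0.589).

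**Figure D2:**
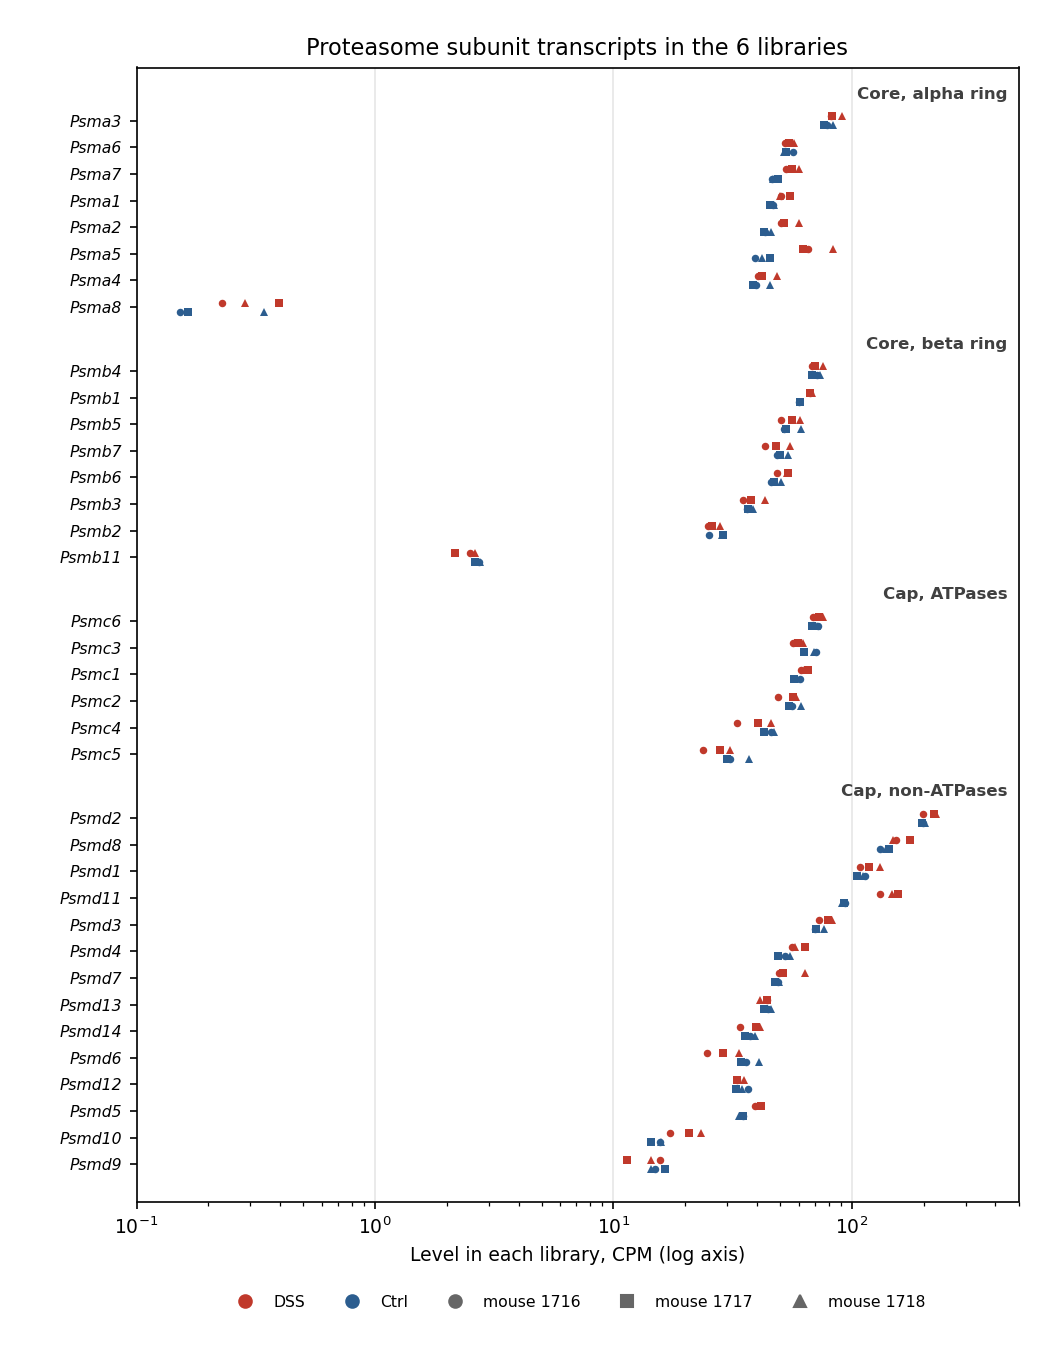
Level of the 36 members in each of the 6 libraries, in CPM on a log axis (horizontal), with DSS libraries in red above Ctrl libraries in blue and 1 symbol per mouse. Most members lie between 10 and 100 CPM in both groups, Psma8 and Psmb11 lie far below, and the red and blue points of Psma5 and Psmd11 are clearly apart.

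Among the ATPases of the cap, 0 of 6 passed the test, where 13.3% of all genes were called in either direction. Of the 6, 4 had changes below 0, with a median of -0.13, where 51.4% of all genes lay above 0. Psmc3 had 56.7, 59.5 and 62.3 CPM in the DSS libraries of mice 1716, 1717 and 1718, against 70.8, 63.2 and 69.2 CPM in Ctrl. Each DSS library lay below each Ctrl library, and the log2 fold change was -0.19 ± 0.07 (edgeR adjusted p = 0.137). Psmc5 had 23.7, 28.0 and 31.0 CPM in DSS and 30.9, 29.9 and 37.1 CPM in Ctrl, which overlapped, for a log2 fold change of -0.24 ± 0.12 (edgeR adjusted p = 0.252, and 0.0518 with the mouse as a block). Psmc4 had 32.9, 40.4 and 45.9 CPM in DSS and 45.8, 43.0 and 47.3 CPM in Ctrl, and Psmc2 had 48.9, 56.6 and 58.5 CPM in DSS and 56.4, 54.5 and 61.1 CPM in Ctrl. In both the low DSS value was that of mouse 1716, and the log2 fold change was -0.19 ± 0.12 for Psmc4 and -0.07 ± 0.09 for Psmc2. Psmc1 was the only ATPase with DSS above Ctrl in every library, with 61.3, 65.6 and 63.2 CPM in DSS against 60.7, 57.4 and 57.6 CPM in Ctrl (log2 fold change 0.11, 95% interval -0.03 to 0.26), and Psmc6 had a log2 fold change of 0.04.

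Of the 14 Psmd genes of the cap 2 rose (14.3%, against 7.37% of all genes) and 0 fell (against 5.91% of all genes), with a median of 0.11. Psmd11 (NCBI Gene 69077, chromosome 11, 80428615 to 80473248, GRCm38) encodes a lid subunit that clamps the cap to the core. It was at 131, 156 and 148 CPM in the DSS libraries of mice 1716, 1717 and 1718, against 94.1, 93.0 and 91.0 CPM in Ctrl. The groups were well apart, and the Ctrl libraries were close to each other. Its mean was 145 ± 12.3 CPM in DSS and 92.7 ± 1.54 CPM in Ctrl (SD, n = 3 each), a log2 fold change of 0.64 ± 0.08 (SE, edgeR adjusted p = 0.00295), higher in 3 of 3 mice. The adjusted p by edgeR was 0.0515 without both libraries of mouse 1717 and 0.0544 without those of mouse 1718. Both listed transcripts of Psmd11 were higher: one had 85.6 CPM in DSS and 51.5 CPM in Ctrl on average, the other 59.3 CPM in DSS and 41.2 CPM in Ctrl.

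Psmd5, Psmd9 and Psmd10 encode chaperones that help assemble the base of the cap and leave before the particle is finished, so the symbol rule takes in 3 genes that are not subunits of the mature proteasome. Psmd5 (NCBI Gene 66998, chromosome 2, 34852087 to 34870965) rose, with 39.1, 41.7 and 41.0 CPM in DSS against 35.0, 34.8 and 33.5 CPM in Ctrl. The groups did not overlap, but the change was small, 0.24 ± 0.06 on the log2 scale, and its edgeR adjusted p of 0.0499 passed in only 2 of 17 alternatives, the mouse block (0.0271) and library totals alone. Psmd10, also known as gankyrin, had 17.3, 20.7 and 23.3 CPM in DSS and 15.7, 14.4 and 15.8 CPM in Ctrl, with a log2 fold change of 0.42 ± 0.12 (edgeR adjusted p = 0.0637). It passed with the block (edgeR adjusted p = 0.0239), without the DSS library of mouse 1716 (0.0211) and without mouse 1716 (0.0463). Psmd9 had 15.7, 11.4 and 14.4 CPM in DSS and 14.9, 16.4 and 14.3 CPM in Ctrl, which overlapped. Its log2 fold change was -0.14 ± 0.13, but the difference within mice 1716, 1717 and 1718 was 0.07, -0.49 and 0.01, and without mouse 1717 the fitted change was 0.04.

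The lid subunit Psmd6 had the largest change below 0 of all members. It was at 24.6, 28.9 and 33.7 CPM in DSS, against 35.9, 34.2 and 40.6 CPM in Ctrl, so the groups did not overlap. Its log2 fold change was -0.34 ± 0.13 (edgeR adjusted p = 0.119), and it passed with the mouse as a block (0.0159). Psmd8, another lid subunit, had 153, 175 and 149 CPM in DSS and 132, 143 and 139 CPM in Ctrl, a log2 fold change of 0.21 ± 0.08 that passed with the block alone (edgeR adjusted p = 0.0453). The lid subunits Psmd12 and Psmd13 had log2 fold changes of -0.04 each. Psmd12 had 33.04, 32.9 and 35.2 CPM in DSS and 36.8, 32.7 and 34.7 CPM in Ctrl, and Psmd13 had 44.1, 43.9 and 41.1 CPM in DSS and 44.5, 42.6 and 45.7 CPM in Ctrl. Both pairs of groups overlapped.

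None of the subunits that meet ubiquitin passed the test. Psmd14, the enzyme that cuts ubiquitin chains from substrates, had a log2 fold change of 0.03 with a 95% interval of -0.18 to 0.24, and its partner Psmd7 one of 0.17. Psmd4, a ubiquitin receptor, had 56.2, 63.3 and 57.5 CPM in DSS and 52.4, 49.1 and 55.1 CPM in Ctrl, a log2 fold change of 0.18 (edgeR adjusted p = 0.18). Of its 4 listed transcripts, one took 40.4% of the counts in DSS and 32.8% in Ctrl and another 53.3% in DSS and 58.6% in Ctrl, which were not tested. The large scaffold subunits Psmd1 and Psmd2 and the lid subunit Psmd3 each had a log2 fold change of 0.11, and none passed (edgeR adjusted p = 0.43, 0.367 and 0.378).

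**Figure D3:**
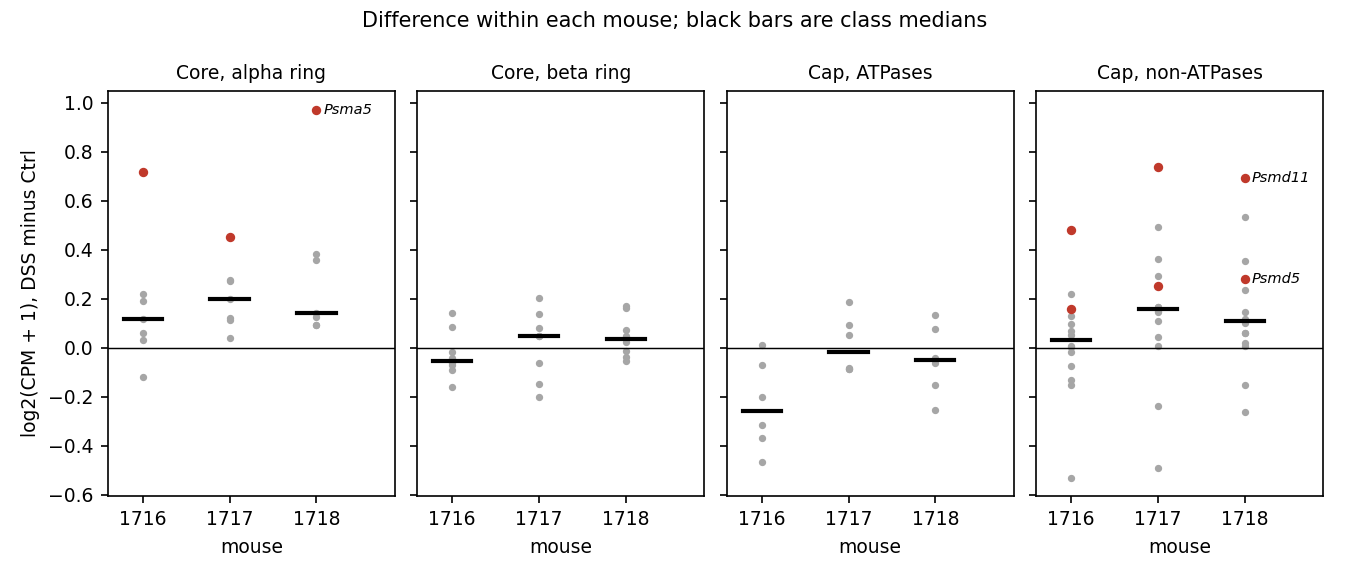
Difference in log2(CPM + 1) between the DSS and the Ctrl library of each mouse for each tested member (dots; called members in red), by class, with the class median as a black bar. The alpha ring lies mostly above 0 in all 3 mice, the ATPases lie lowest in mouse 1716, and Psma5 and Psmd11 lie above the other members in mice 1716 and 1718, while in mouse 1717 Psmd10 (0.49) lies above Psma5 (0.45).

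The classes differed in where their values lay, as a description over genes of the same libraries. The median difference within mice 1716, 1717 and 1718 was 0.12, 0.20 and 0.14 for the alpha ring, -0.05, 0.05 and 0.04 for the beta ring, -0.26, -0.02 and -0.05 for the ATPases and 0.03, 0.16 and 0.11 for the other cap subunits. The summed level of the core was 734, 766 and 838 CPM in DSS, against 693, 697 and 732 CPM in Ctrl, a ratio of 1.06, 1.10 and 1.14 in mice 1716, 1717 and 1718. That of the cap was 1270, 1405 and 1423 CPM in DSS, against 1267, 1233 and 1292 CPM in Ctrl, a ratio of 1.003, 1.140 and 1.101. In mouse 1716 the cap sum thus differed little between the cultures. Among the DSS libraries that of mouse 1716 held the lowest value for 28 of the 35 members and that of mouse 1718 the highest for 26. The same order was not counted over all genes, so it cannot be called particular to the members.

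Levels per transcript length differed widely between subunits that stand in equal number in the finished particle. In DSS cultures Psmd8 had the highest level, 105 ± 8.95 CPM per kilobase, and in Ctrl Psma3, 92.3 ± 4.14 (SD, n = 3 each), with Psmd8 next at 91.1 ± 3.72, which overlaps it. The 6 ATPases lay within a 1.90-fold range in DSS and a 1.67-fold range in Ctrl, and the 7 expressed Psmb genes within 2.14-fold in DSS and 1.92-fold in Ctrl. Psma5 was 8th of the 36 genes in DSS and 18th in Ctrl, and Psmd11 was 10th in DSS and 20th in Ctrl. The assembly chaperones Psmd5, Psmd9 and Psmd10 were the lowest of the broadly expressed members, at 9.23, 5.33 and 14.3 CPM per kilobase in DSS and 7.83, 5.87 and 10.7 in Ctrl. Lengths were those of matched annotated transcripts and not those used in the quantification, so order between close genes is uncertain. For Psma3 the length, 859 bases, was that of a transcript with 8.10% of its counts, since the main transcript had no matched length. Another Psma3 transcript had 2846 bases, so the rank of Psma3 is uncertain. The length of Psmc2 likewise came from a transcript with 1.03% of its counts.

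Of 45 listed partners and pathway genes 11 rose (24.4%, against 7.37% of all genes) and 0 fell (against 5.91%), and the median of the 45 was 0.06. The 11 include Psmb8, Psmb9 and Psmb10, described above. The list was chosen with earlier results of these data known, so its share is a description and not a test. Pomp, the factor that matures newly made cores, had 49.1, 41.7 and 52.9 CPM in DSS, against 29.4, 27.6 and 34.1 CPM in Ctrl. It rose by 0.66 ± 0.12 on the log2 scale (edgeR adjusted p = 0.0109), a call lost without the Ctrl library of mouse 1717 (0.0502), without mouse 1716 (0.0743) or without mouse 1717 (0.0515), while none of the other 5 assembly factors passed; Psmg4 was next with 0.46 ± 0.20 (edgeR adjusted p = 0.185). Psme1 and Psme2, the subunits of an interferon-induced activator that opens the core without ATP, rose by 1.25 ± 0.21 and 1.16 ± 0.22 (edgeR adjusted p = 0.00905 and 0.0151), and both lost the call without mouse 1716 (0.063 and 0.101) or mouse 1718 (0.0691 and 0.0799). Psme2 also lost it without the Ctrl library of mouse 1716 (edgeR adjusted p = 0.0536) or mouse 1717 (0.0673). With all libraries and the mouse as a block, the edgeR adjusted p was 0.000436 for Pomp, 0.000715 for Psme1 and 0.000574 for Psme2. None of the 6 other cap proteins passed, among them the ubiquitin receptor Adrm1 (0.15 ± 0.09) and Sem1 (-0.10 ± 0.08), where 13.3% of all genes were called in either direction.

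Nfe2l1, the factor that restores proteasome gene transcription, had 315, 305 and 279 CPM in DSS and 312, 362 and 379 CPM in Ctrl. The groups overlapped, and the log2 fold change was -0.23 ± 0.09 (edgeR adjusted p = 0.159). Its relative Nfe2l2, which drives genes of the response to oxidants, had 119, 143 and 131 CPM in DSS against 89.6, 84.9 and 101 CPM in Ctrl and rose by 0.51 ± 0.10 (edgeR adjusted p = 0.0138). The small Maf proteins that pair with both factors also rose, Mafg by 0.55 ± 0.09 (edgeR adjusted p = 0.0101), Mafk by 0.45 and Maff by 0.29, so that 4 of 11 genes of this list were higher (36.4%, against 7.37% of all genes). Nfe2l2 and Mafg lost their calls without mouse 1717 (edgeR adjusted p = 0.145 and 0.113) and without mouse 1718 (0.0667 and 0.0738), and Nfe2l2 also without the Ctrl library of mouse 1716 (0.0526) or 1717 (0.0629). Mafk kept its call only without the DSS library of mouse 1717 among 9 fits leaving out 1 library or mouse, and Maff kept it in none of them (edgeR adjusted p up to 0.154 for Mafk and 0.248 for Maff). With all libraries and the mouse as a block, the edgeR adjusted p was 0.00431 for Nfe2l2, 0.000703 for Mafg, 0.0178 for Mafk and 0.0150 for Maff. Of 14 genes of ubiquitin supply and delivery 1 rose (7.14%, against 7.37% of all genes). This was Sqstm1, a receptor that carries ubiquitinated cargo to autophagy, higher by 1.11 ± 0.15 (edgeR adjusted p = 0.00483). Its edgeR adjusted p was 0.0651 and 0.0529 without mouse 1717 and mouse 1718, and 0.000104 with all libraries and the block. Uba1, the main enzyme that activates ubiquitin, had 391, 453 and 452 CPM in DSS against 347, 359 and 357 CPM in Ctrl, with a log2 fold change of 0.29 ± 0.08 (edgeR adjusted p = 0.0558, and 0.0153 with the block). It passed in 6 of 17 alternatives, the block among them.

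**Figure D4:**
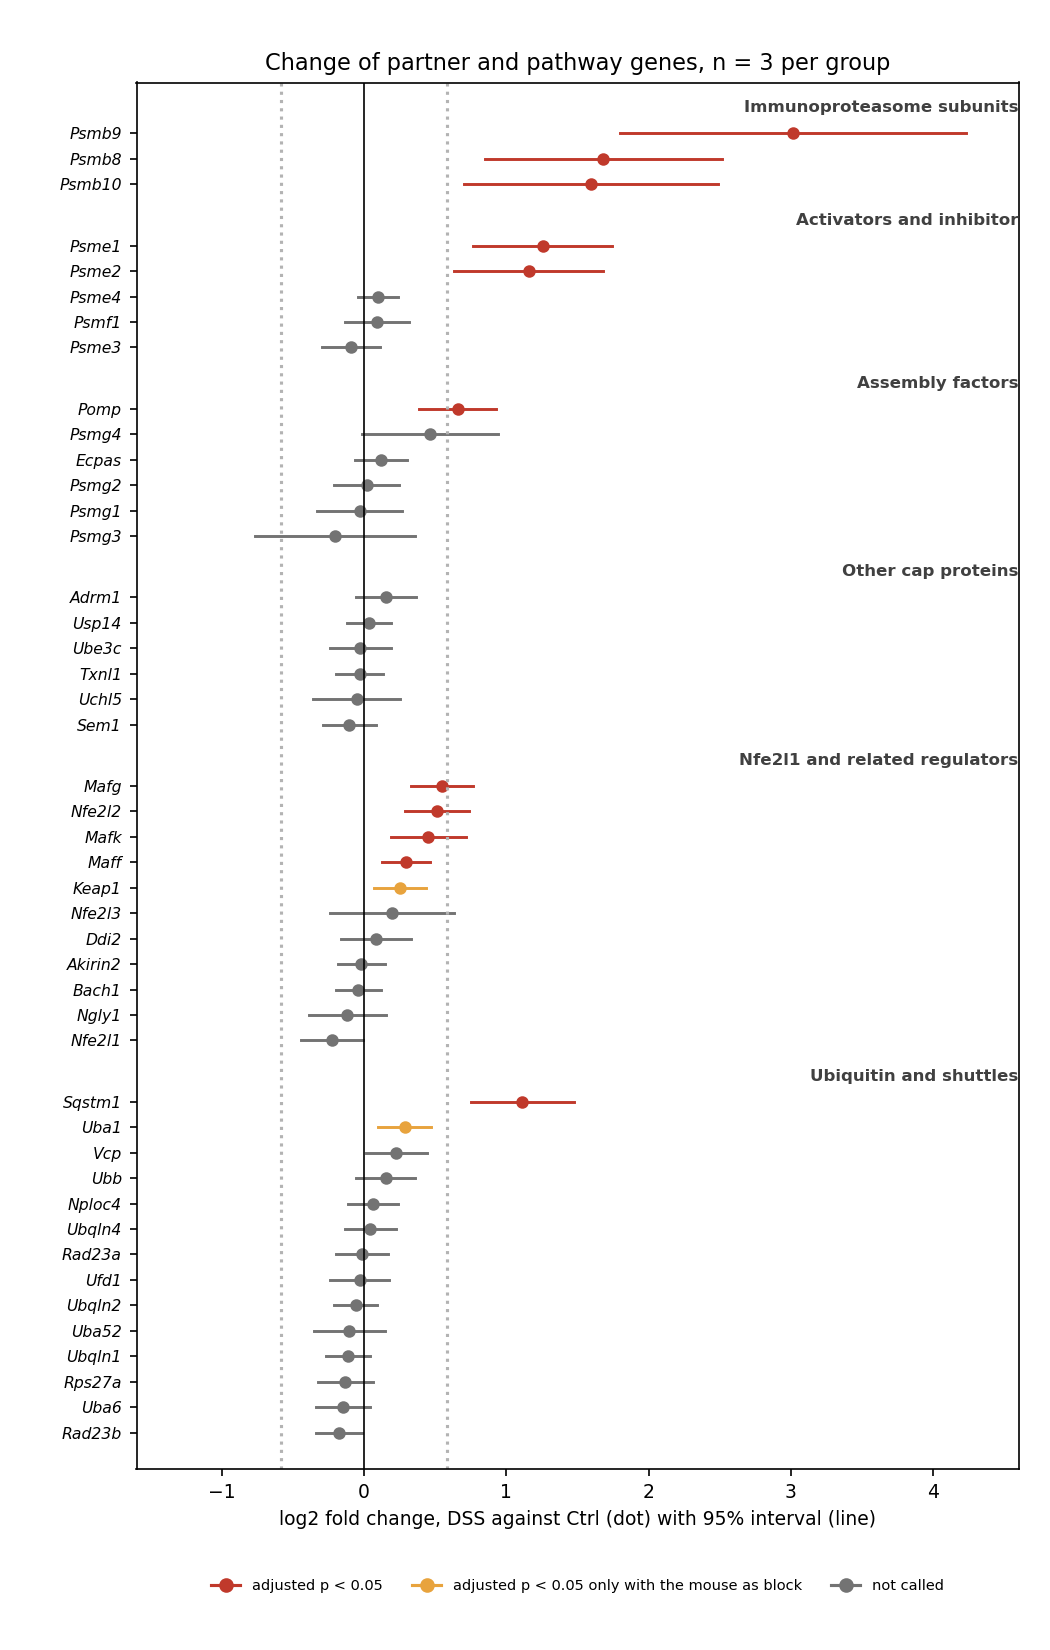
Fitted log2 fold change of DSS against Ctrl (dot, horizontal axis) with its 95% interval (line) for 45 partner and pathway genes, grouped by role; dotted lines mark 1.5-fold. Psmb8, Psmb9, Psmb10, Psme1, Psme2, Pomp and Sqstm1 lie beyond the right dotted line, and most others lie near 0.

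Promoter sequence was searched for 3 short motifs on both strands in the 250 bases before each annotated start, in RefSeq windows of GRCm38.p6 that 29 of the 36 members had. TGACNNNGC, a pattern of the antioxidant response element to which Nfe2l1, Nfe2l2 and small Maf proteins bind, was in the windows of 5 of the 29 genes (16.1% of 31 windows), against 10.2% of all 32851 windows. CCAAT, the pattern of the factor NF-Y, was found in 12 genes (38.7% of their windows, against 33.8% of all). GGGCGG, a pattern of Sp factors, was found in 17 genes (54.8% of windows, against 32.7% of all), 5 of them core and 12 cap. The 5 genes with TGACNNNGC were Psmb5, Psmb6, Psmc6, Psmd12 and Psmd9. None of these passed the test, where 8.57% of all tested members did, and a link between motif and change was not tested. Of the 3 genes that rose, Psmd11 and Psmd5 held GGGCGG, and the window of Psma5 held none of the 3 motifs. Psmd5 held GGGCGG at positions -155 and -97 from its start, and the match at -155 lies outside the trimmed stretch shown. A match is a description of the letters and not of binding. The stretches before the starts of the 3 risen genes are shown, trimmed where annotated exons begin, with GGGCGG in capitals (Psmd11 at chr11:80428365-80428614, plus strand; Psma5 at chr3:108256676-108256877, plus strand; Psmd5 at chr2:34870966-34871107, minus strand).
Psmd11: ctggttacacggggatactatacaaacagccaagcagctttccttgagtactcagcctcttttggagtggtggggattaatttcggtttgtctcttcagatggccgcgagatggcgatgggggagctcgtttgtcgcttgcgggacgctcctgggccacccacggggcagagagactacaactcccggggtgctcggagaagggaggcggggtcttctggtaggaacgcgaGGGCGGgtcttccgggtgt
Psma5: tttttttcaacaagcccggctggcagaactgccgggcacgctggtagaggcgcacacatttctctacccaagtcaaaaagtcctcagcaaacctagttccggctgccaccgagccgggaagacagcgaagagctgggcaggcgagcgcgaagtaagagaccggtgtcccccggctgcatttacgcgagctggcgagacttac
Psmd5: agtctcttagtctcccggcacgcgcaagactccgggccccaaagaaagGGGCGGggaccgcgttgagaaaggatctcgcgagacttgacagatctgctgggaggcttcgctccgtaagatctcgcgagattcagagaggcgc

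The sites of TGACNNNGC are shown apart from the stretches above, with the motif in capitals, on whichever strand it was read. They lie at chr14:54618023-54618052, minus strand for Psmb5, chr11:70525327-70525356, plus strand for Psmb6, chr14:45329587-45329616, plus strand for Psmc6, chr11:107479278-107479307, plus strand for Psmd12 and chr5:123228149-123228178, plus strand for Psmd9. The stretch of Psmb6 lies in an annotated exon.
Psmb5: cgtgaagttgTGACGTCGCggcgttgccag
Psmb6: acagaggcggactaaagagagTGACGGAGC
Psmc6: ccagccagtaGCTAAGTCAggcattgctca
Psmd12: tctGCTGTGTCAcatttgcccccctcagac
Psmd9: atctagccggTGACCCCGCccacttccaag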

How the data were processed

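Total RNA of 6 fibroblast cultures was depleted of ribosomal RNA and made into strand-specific libraries, per the labels' protocols. The deposited table holds estimated counts for 120299 transcripts, made by the authors with kallisto on GRCm38 (mm10), per the submitters' processing notes; its version is unknown here. These were summed per gene symbol, rounded, filtered (filterByExpr of edgeR, count 10, total 15), scaled by TMM and tested in the 6 libraries with edgeR 4.0.16 in R 4.3.3 (quasi-likelihood test, Benjamini-Hochberg adjustment over 19869 genes, threshold 0.05). SE was taken from the log2 fold change and the test's F, with 95% intervals. CPM values use TMM-scaled totals. The procedure was run on counts simulated from its own fitted model, which cannot show whether that model suits these data.

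Each mouse gave both cultures. Deviations of the same mouse's libraries from their group means correlated at 0.35, 0.21 and 0.46, and those of different mice at -0.36 to 0.02. Deviations cancel within each group, so the values of different mice are partly set by those of the same mouse. From the labels and the same-mouse values, the numbers were taken to pair the libraries. Replicates are cultures from separate mice. The main fit held the group only and did not use the pairs. Alternatives were the mouse block, other scalings, no filter, DESeq2 1.42.0, limma-voom (limma 3.58.1) and leaving out each library or mouse. Fits leaving out a library or mouse had no block.

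Every tested member is named with its change. Values per library are given for the 3 members of smallest p in each class, the lowest change and all changes below 0, with further members added. The members, lists and rules were chosen with earlier results of these data known. The gene Paaf1 was not analysed here. A gene of the ubiquitin list is not reported here. Transcript lengths came from GENCODE M21 by RefSeq accession.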

Additional observations from a re-analysis of the deposited data

How the results depend on the processing

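With the replicate block, which pairs libraries by mouse, 4965 genes were called in place of 2639, core subunits called higher numbered 3 in place of 1, cap subunits called higher 4 in place of 2, and 1 cap subunit was called lower. Core subunits called higher were 2 with library totals alone. Cap subunits called higher were 1 with DESeq2 size factors, with ribosomal RNA left out, without the filter, with DESeq2 (also with the block) and with limma-voom, since Psmd5 lost its call in each. Leaving out a library or mouse gave 649 to 2418 genes called, 0 to 2 core and 0 to 2 cap subunits called higher, and a core median of -0.001602 to 0.1382 on the log2 scale.

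Changes near 0 turned sign without being called. Psmb4 was at -5.2e-05 with DESeq2 size factors, -3.372e-05 with DESeq2 and -0.0009923 with DESeq2 and the block, and Psmb5 at -0.0008334 with the last. Over all fits leaving out 1 library or mouse the log2 fold change ran from -0.03879 to 0.04718 for Psmb4, -0.0607 to 0.08595 for Psmb5, -0.001602 to 0.155 for Psma4, -0.05288 to 0.09301 for Psma6, -0.03322 to 0.1307 for Psmb3, -0.1574 to 0.01774 for Psmb7, -0.13 to 0.006363 for Psmc2, -0.2541 to 0.04069 for Psmd9, -0.08812 to 0.01372 for Psmd12, -0.08485 to 0.002996 for Psmd13 and -0.03117 to 0.1083 for Psmd14. The causes were not tested. The precision of 3 libraries a group is that of the intervals given, and no limit of detection was computed.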
